A study of Homo sapiens with 12 samples.

Results

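The genes described here are the protein-coding rows of a human count table whose symbol begins with PSM, then a letter from A to G and a digit. This rule takes the named subunits, activators, inhibitor and assembly factors of the proteasome. It found 49 of the 57704 endogenous genes listed in the table, in all 12 libraries. By role they are 8 alpha-ring and 7 beta-ring genes of the 20S core, 4 genes of the inducible and thymic cores, 6 ATPases, 3 non-ATPase base subunits and 8 lid subunits of the 19S cap, 3 assembly chaperones of the cap, 4 of the core, and 5 activators or inhibitors. The last member, PSMC3IP, carries the prefix because its protein was named after binding PSMC3. It encodes the meiotic recombination factor HOP2 and is not a proteasome gene, so counts are given with and without it.

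The proteasome degrades proteins that have been marked with ubiquitin chains. Its 20S core is a barrel of stacked alpha and beta rings, in which catalytic beta subunits cut peptide bonds, and its 19S cap binds the ubiquitin chain, removes it, unfolds the protein and feeds it into the barrel. Dedicated chaperones put both pieces together, alternative caps such as PA28 and PA200 open the barrel, and cells coordinate subunit genes through the transcription factor NFE2L1, which binds antioxidant response elements in their promoters.

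The libraries came from HEK293, an established human embryonic kidney cell line (ATCC CRL-1573), stably expressing a reporter that joins an endogenous intronic sequence to DARP-EGFP. A pool of SUPT4H1 siRNAs went into 1 group and scrambled siRNAs into the other, at a final 100 nM, RNA was taken 72 hours later, and both groups comprised 6 transfections of a single culture done in parallel. The SUPT4H1 siRNA lysates received ERCC standards of mix 2 and the scrambled siRNA lysates those of mix 1, so mix and treatment cannot be told apart except through standards of equal amount in both. The SUPT4H1 protein is the smaller partner in the elongation factor DSIF, and the comparison asks how its loss changes RNA levels in these cells. All 12 libraries carry the reporter, no untransfected cells were among them, and p-values measure the spread among transfections of 1 culture only.

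SUPT4H1 itself had 17.7 to 23.2 CPM (TMM-scaled counts per 1000000 endogenous counts) with its siRNAs, against 175 to 198 CPM with scrambled siRNA, a log2 fold change in relative abundance of −3.14 (SE 0.08, edgeR's quasi-likelihood test, adjusted p after Benjamini and Hochberg = 3.62e-17). Endogenous counts summed to 6591194 to 11366971 in the SUPT4H1 siRNA libraries, against 7337033 to 20269171 in the scrambled siRNA libraries, and the RNA integrity number was 9.6 to 10 with SUPT4H1 siRNA, against 9.9 to 10 with scrambled siRNA. All 7 listed HEK293 markers passed the filter on low counts, but PAX2 and NEFM were near the detection limit. PAX2 had 0.407 to 1.32 CPM with SUPT4H1 siRNA, against 1.06 to 2.16 CPM with scrambled siRNA. NEFM had 0.721 to 1.63 CPM with SUPT4H1 siRNA, against 1.04 to 1.91 CPM with scrambled siRNA. The other HEK293 markers were higher in every library. None of the 6 leukocyte markers passed the filter, and PTPRC was at 0 in every library. Their summed levels were 0.434 to 1.83 CPM with SUPT4H1 siRNA, against 0.675 to 1.53 CPM with scrambled siRNA. SUPT4H1 siRNA replicate 6 stood apart from its group: among the 45 members that passed the filter it was the lowest library of its group for 26 and the highest for 9. Calls that turned on it are given with and without it.

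Of the 49 members, 45 passed the filter. PSMA8 and PSMB11 had no count in any library, and PSMB8 and PSMB10 were too low to test. In relative abundance, which sets each gene against all endogenous RNA of its library, 14 members rose with SUPT4H1 siRNA and 8 fell at an adjusted p under 0.05, or 14 and 7 of 44 without PSMC3IP. The background over all 13820 genes tested was 20.3% risen and 19.8% fallen, and the members' shares were 31.1% and 17.8%. Their median relative log2 fold change was 0.10, beside 0.00 over all genes tested. Without SUPT4H1 siRNA replicate 6 the counts were 16 risen and 9 fallen: PSMC3, PSMD4 and PSMD12 lost their call, PSMA2, PSMB3, PSME1, PSME2 and PSMF1 were called risen, and PSMB1 was called fallen. The whole table moved too: of 14043 genes tested in that setting 2724 rose and 3177 fell, with a median of −0.03. With every library included, 2806 and 2734 of 13820 did. The calls were split by role: 11 of the 14 that rose belong to the 19S cap, and none of the 7 assembly chaperones was among them. For 8 members every SUPT4H1 siRNA library lay above every scrambled siRNA library, a pattern that 10.3% of all genes tested showed, and for 4 every SUPT4H1 siRNA library lay below, which 9.91% of all genes showed.

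**Figure D1:**
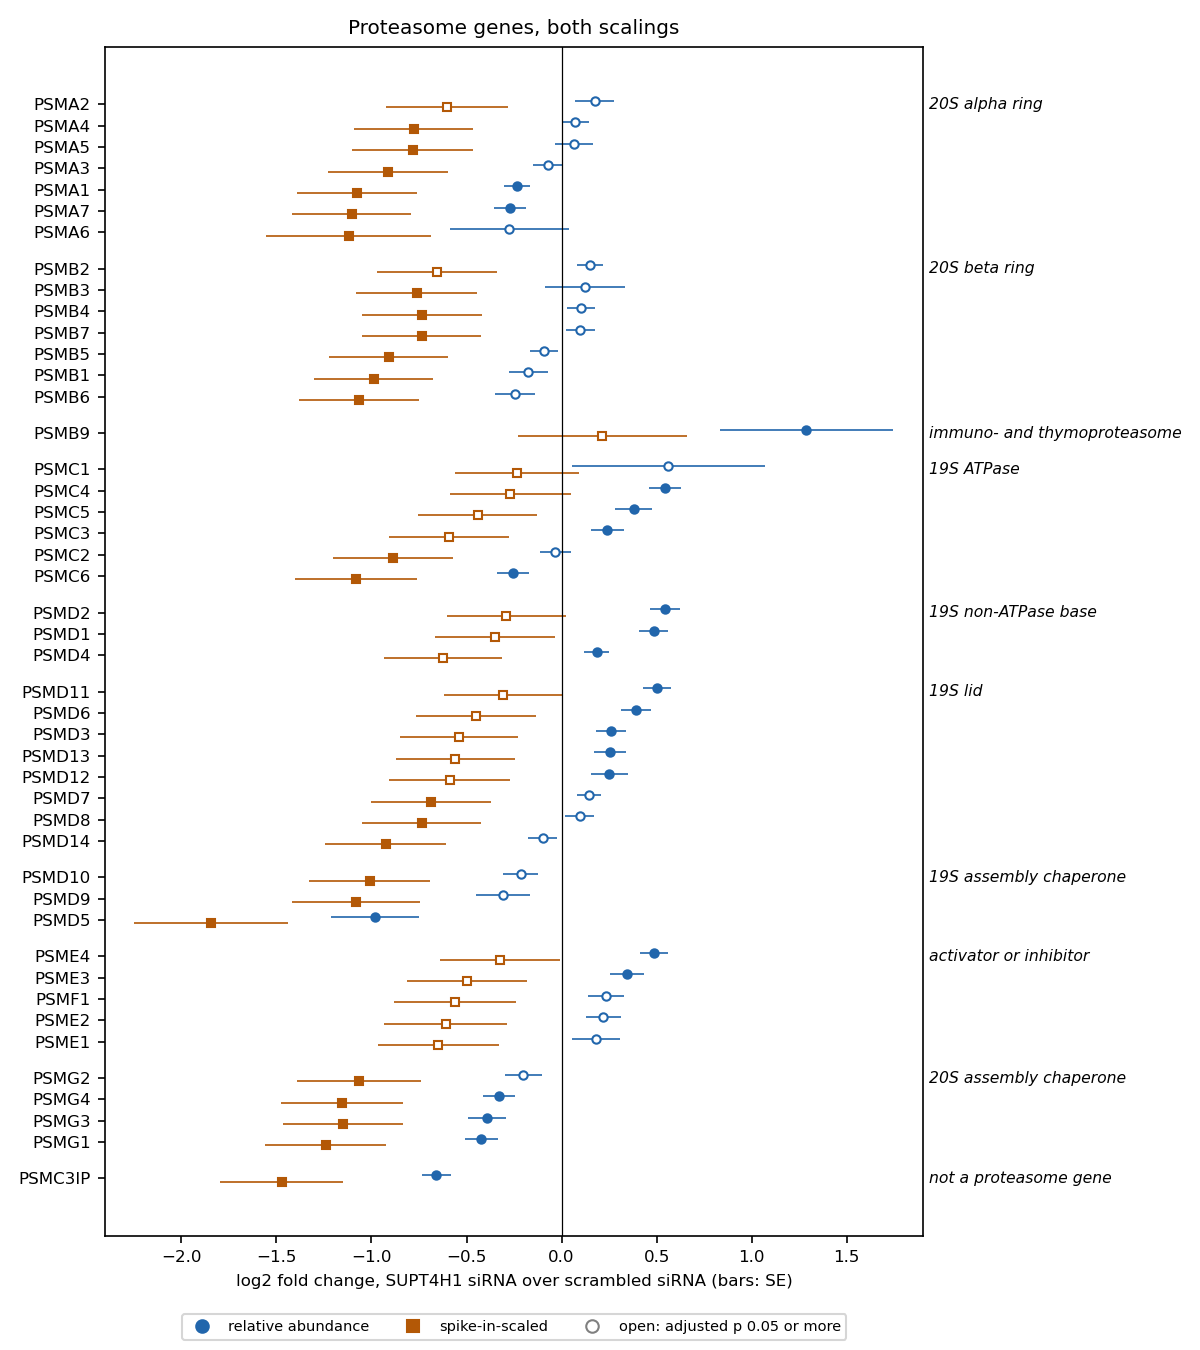
Log2 fold changes (SUPT4H1 siRNA over scrambled siRNA, x axis) of the 45 tested members, grouped by role, with circles for relative abundance, squares for spike-in scaling and bars for the SE. Filled symbols have an adjusted p under 0.05. The 19S cap genes lie mostly right of 0 in relative abundance, the 7 assembly chaperones lie left of 0, and the 20S core genes lie around 0.

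The second scaling asks how much of each RNA was recovered per lysate. Counts of each library were divided by the sum over ERCC standards present at equal amounts in both mixes (subgroup B). Under it 0 members rose and 25 fell, a share of 55.6%, where 0.304% of all genes tested rose and 59% fell. No member was higher at an unadjusted p under 0.05 either, and DESeq2 and limma-voom also called 0 risen. The members' median spike-in-scaled log2 fold change was −0.74, which is 60.0% of the scrambled siRNA level, beside −0.82 and 56.7% for all genes tested. Summed over all members, the counts per subgroup B count were 2.59 ± 1.21 with SUPT4H1 siRNA and 4.41 ± 1.15 with scrambled siRNA (SD, n = 6 each). The ranges overlapped, at 1.59 to 4.95 with SUPT4H1 siRNA, against 3.25 to 6.61 with scrambled siRNA, and the highest value of the SUPT4H1 siRNA group came from replicate 5. Without that library 44 members fell, with RNA integrity as a covariate 43 fell, and with the standards of subgroup C as the scale 3 fell. The labels give the same nominal 1000000 cells for every lysate, and no measured cell number was used here. In bulk samples such as these, fewer cells in a lysate and less RNA per cell cannot be told apart. The summed level in relative abundance was 7938.5 ± 348 CPM with SUPT4H1 siRNA and 7641 ± 332 CPM with scrambled siRNA (SD, n = 6 each), with overlapping ranges.

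The 19S cap held most of the risen members. Of its 17 subunit genes 11 rose in relative abundance (64.7%), 1 fell (5.88%) and 5 were not called. Over all genes tested 20.3% rose and 19.8% fell. The cap subunits' median log2 fold change in relative abundance was 0.25. Their summed level was 3592 ± 179 CPM with SUPT4H1 siRNA and 3022 ± 148 CPM with scrambled siRNA (SD, n = 6 each). The ranges overlapped by a small margin, at 3311 to 3748 CPM with SUPT4H1 siRNA, against 2928 to 3316 CPM with scrambled siRNA. When each library was left out in turn the count risen was 7 to 11, with 7 without scrambled siRNA replicate 2, and 8 without scrambled siRNA replicate 3 or any of SUPT4H1 siRNA replicates 3 to 6. The largest rises in the ATPase ring, the rest of the base and the lid were PSMC4 (1.46-fold), PSMD2 (1.46-fold) and PSMD11 (1.42-fold).

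Promoters of 6 members are shown because each carries a copy of the antioxidant response element core, TGACNNNGC, and because their genes moved in both directions. They run from 250 bases before to 50 bases after the start site and come from RefSeq (assembly GRCh38.p14), in which 43 of the 49 members were matched by symbol. Capitals mark the core or its reverse complement. PSMC4 (chr19:39970915-39971214, plus strand), PSMD1 (chr2:231056617-231056916, plus strand), PSMD3 (chr17:39980557-39980856, plus strand) and PSME4 (chr2:53970944-53971243, minus strand) rose in relative abundance. PSMG1 (chr21:39183402-39183701, minus strand) and PSMD5 (chr9:120842873-120843172, minus strand) fell.
PSMC4: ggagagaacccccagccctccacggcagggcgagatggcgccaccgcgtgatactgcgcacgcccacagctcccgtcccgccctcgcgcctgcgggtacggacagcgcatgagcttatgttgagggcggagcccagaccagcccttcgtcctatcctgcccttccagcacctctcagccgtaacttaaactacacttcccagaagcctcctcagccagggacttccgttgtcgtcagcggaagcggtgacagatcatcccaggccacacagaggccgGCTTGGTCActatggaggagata
PSMD1: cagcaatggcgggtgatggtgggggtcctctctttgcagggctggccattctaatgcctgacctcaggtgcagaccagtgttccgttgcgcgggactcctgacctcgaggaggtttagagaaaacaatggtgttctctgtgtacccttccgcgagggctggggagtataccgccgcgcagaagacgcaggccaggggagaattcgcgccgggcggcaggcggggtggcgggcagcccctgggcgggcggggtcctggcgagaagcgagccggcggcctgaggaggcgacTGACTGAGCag
PSMD3: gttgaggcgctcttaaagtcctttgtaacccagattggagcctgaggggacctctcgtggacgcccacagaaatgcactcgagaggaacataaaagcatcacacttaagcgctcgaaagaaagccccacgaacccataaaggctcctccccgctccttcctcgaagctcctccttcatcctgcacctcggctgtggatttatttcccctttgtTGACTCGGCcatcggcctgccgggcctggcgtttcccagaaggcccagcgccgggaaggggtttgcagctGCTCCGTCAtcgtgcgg
PSME4: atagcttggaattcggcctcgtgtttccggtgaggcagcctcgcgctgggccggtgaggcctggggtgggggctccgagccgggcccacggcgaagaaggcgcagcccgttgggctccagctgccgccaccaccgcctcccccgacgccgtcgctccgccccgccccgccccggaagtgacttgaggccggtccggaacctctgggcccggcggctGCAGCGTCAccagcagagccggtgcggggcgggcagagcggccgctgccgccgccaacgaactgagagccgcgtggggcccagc
PSMG1: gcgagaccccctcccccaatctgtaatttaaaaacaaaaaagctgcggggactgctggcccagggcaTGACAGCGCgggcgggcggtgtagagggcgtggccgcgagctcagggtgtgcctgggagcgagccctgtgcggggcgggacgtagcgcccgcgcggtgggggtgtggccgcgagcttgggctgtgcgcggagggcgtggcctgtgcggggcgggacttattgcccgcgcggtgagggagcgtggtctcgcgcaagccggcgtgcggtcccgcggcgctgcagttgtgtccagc
PSMD5: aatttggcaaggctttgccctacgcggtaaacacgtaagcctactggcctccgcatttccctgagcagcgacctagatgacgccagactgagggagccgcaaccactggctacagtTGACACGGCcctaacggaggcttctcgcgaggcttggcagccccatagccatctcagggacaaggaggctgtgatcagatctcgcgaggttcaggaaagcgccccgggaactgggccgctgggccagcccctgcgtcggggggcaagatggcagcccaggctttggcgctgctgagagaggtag

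Searched on both strands, the core TGACNNNGC was in the promoters of 15 of the 43 matched members (34.9%). The share over the 9710 tested genes with a promoter was 19.6%. In both shares a gene was counted if any of its listed promoters held a match. Taken singly, 13.3% of all 35116 promoters held it, which is not a share of genes. The core was present in 7 of the 13 matched members that rose (PSMB9, PSMC4, PSMC5, PSMD1, PSMD12, PSMD3 and PSME4), in 2 of the 6 matched members that fell (PSMD5 and PSMG1) and in 6 of the 20 that were tested and not called. Among the tested genes with a promoter the shares were 20% of those that rose, 20.6% of those that fell and 19.2% of those not called. Its place in the window varied: in PSMC4 and PSMD1 it began 27 and 39 bases after the start site, PSMD3 had 1 copy 37 bases before and 1 copy 33 bases after it, and in PSMG1 it began 183 bases before it. The box CCAAT, which NF-Y binds, was in 21 of the 43 members (48.8%), beside 43.9% of tested genes with a promoter. Of all promoters taken singly, 34.6% held it. The heat shock element pair GAANNTTC was in 1 of the 43, PSMC3IP, beside 6.52% of tested genes with a promoter and 6.77% of all promoters taken singly. No match of one of these motifs overlapped a match of another in a member's promoter. A match is a description of these letters in this window and not a measured binding site.

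**Figure D2:**
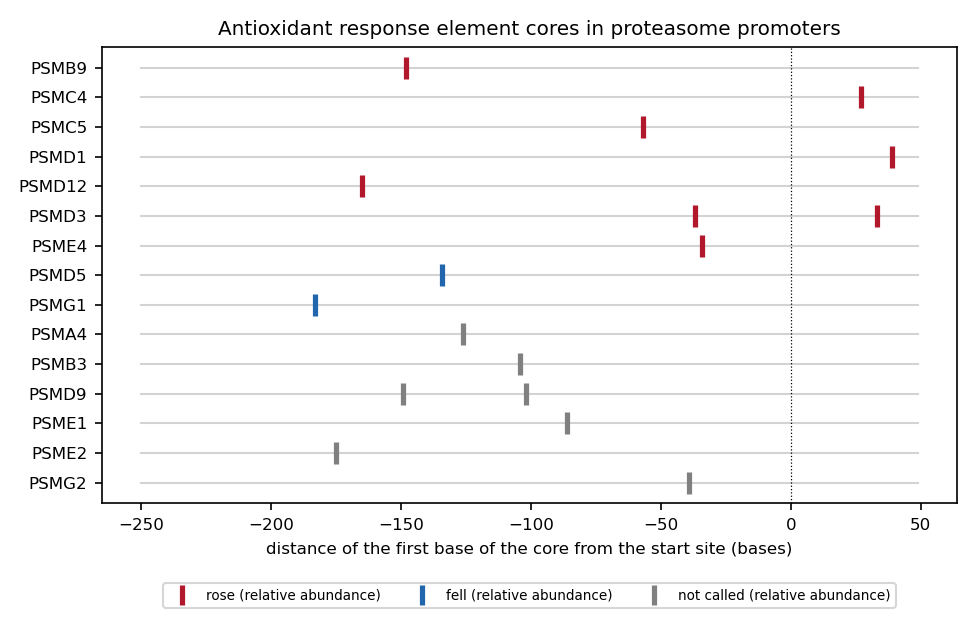
Positions of the antioxidant response element core in the promoters of the 15 members that carry it, as the distance in bases from the start site (dotted line) to the first base of the core, coloured by the call in relative abundance. Matches lie on both sides of the start site, in members that rose, fell and were not called.

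Of the 6 ATPases, the ring of motors that unfolds substrates, 3 rose (50%) and 1 fell (16.7%), beside 20.3% and 19.8% of all genes. PSMC4 (ENSG00000013275, chromosome 19 from 39971005 to 39981441, plus strand, GENCODE 29 on GRCh38) had a lowest, median and highest level of 54.6, 55.7 and 65.4 CPM with SUPT4H1 siRNA, against 35.7, 38.9 and 46.2 CPM with scrambled siRNA. Every SUPT4H1 siRNA library was above every scrambled siRNA library, with a mean of 57.9 ± 4.31 CPM, against 39.6 ± 4.16 CPM (SD, n = 6 each). In relative abundance the log2 fold change was 0.55 (SE 0.08, 1.46-fold, edgeR adjusted p = 3.16e-05), and its spike-in-scaled value was −0.27 (SE 0.32, adjusted p = 0.438).

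PSMC5, another ATPase (ENSG00000087191, chromosome 17 from 63827152 to 63832026, plus strand), had 218, 290 and 307 CPM at its lowest, median and highest with SUPT4H1 siRNA, against 175, 212 and 264 CPM with scrambled siRNA. The groups overlapped, and its relative log2 fold change was 0.38 (SE 0.10, adjusted p = 0.00445). An exon of FTSJ3 lies opposite it, one of 20 members with such an overlap. Whether the counting used strand is not given in the sources used here, and reads of opposite-strand partners cannot be told apart from the members' own. Exons of 8 members, among them PSMA1, PSMA6 and PSMB9, overlap a gene on the same strand, where strand would not separate the reads. What such overlaps did to the counts was not tested. PSMC3 rose by 0.24 in log2 (SE 0.09, adjusted p = 0.0357) and its groups overlapped, at 200 ± 17.5 CPM with SUPT4H1 siRNA and 169 ± 22.6 CPM with scrambled siRNA (SD, n = 6 each). That call was lost in 8 of 20 other settings, with a log2 fold change of 0.16 and an adjusted p of 0.137 without scrambled siRNA replicate 2, and 0.20 and 0.0593 without SUPT4H1 siRNA replicate 6. PSMC6 fell, at 46.2 ± 3.57 CPM with SUPT4H1 siRNA and 55.2 ± 5.72 CPM with scrambled siRNA (SD, n = 6 each, relative log2 fold change −0.26, SE 0.08, adjusted p = 0.0192), and lost its call without replicate 1 of either group. PSMC2 had a relative log2 fold change of −0.03 (adjusted p = 0.773).

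PSMC1, the remaining ATPase, varied most between libraries. It had 55.4 CPM in SUPT4H1 siRNA replicate 6 and 8.51 to 20.7 CPM in the other 5 libraries of that group, against 25.9 CPM in scrambled siRNA replicate 2 and 7.45 to 14.1 CPM in the other 5. Its log2 fold change in relative abundance of 0.56 (SE 0.51, adjusted p = 0.416) turned to −0.066 without SUPT4H1 siRNA replicate 6. The row of its processed pseudogene PSMC1P1 moved in the same libraries, with 16 counts in SUPT4H1 siRNA replicate 6 and 33 in scrambled siRNA replicate 2, each the highest of its group. How reads were shared between gene and pseudogene was not tested, and PSMC1 is treated as uncertain.

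All 3 non-ATPase base subunits rose, beside 20.3% of all genes tested. PSMD2, a large scaffold subunit to which ubiquitin shuttle proteins and the deubiquitinase USP14 dock (ENSG00000175166, chromosome 3 from 184298709 to 184309054, plus strand), had a lowest, median and highest level of 131, 146 and 162 CPM with SUPT4H1 siRNA, against 87.7, 97.7 and 115 CPM with scrambled siRNA. The groups did not overlap, with means of 145 ± 11.4 CPM with SUPT4H1 siRNA and 99.4 ± 9.83 CPM with scrambled siRNA (SD, n = 6 each). In log2, the relative fold change was 0.54 (SE 0.08, 1.46-fold, edgeR adjusted p = 1.70e-05). PSMD1, the other large scaffold subunit (ENSG00000173692, chromosome 2 from 231056864 to 231172827, plus strand), had 145, 160 and 171 CPM with SUPT4H1 siRNA, against 104, 113 and 130 CPM with scrambled siRNA. These groups did not overlap either, and the log2 fold change in relative abundance was 0.48 (SE 0.08, 1.40-fold, adjusted p = 4.52e-05). An exon of HTR2B lies on the opposite strand of PSMD1. PSMD4, a receptor for ubiquitin chains, rose by less, with 443 ± 28.0 CPM with SUPT4H1 siRNA and 390 ± 11.2 CPM with scrambled siRNA (SD, n = 6 each, log2 fold change 0.18, SE 0.07, adjusted p = 0.0347). Its groups overlapped and its call was lost in 11 of 20 other settings, with adjusted p-values of up to 0.116, among them leaving out SUPT4H1 siRNA replicate 6 (0.14, adjusted p = 0.0791).

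The lid carries the deubiquitinase PSMD14 and holds the cap to the core. It had 5 risen genes of 8 (62.5%), beside 20.3% of all genes tested. PSMD11, a lid subunit that clamps cap to core (ENSG00000108671, chromosome 17 from 32444261 to 32483318, plus strand), had a lowest, median and highest level of 342, 384 and 410 CPM with SUPT4H1 siRNA, against 224, 274 and 288 CPM with scrambled siRNA. The groups were apart, and the log2 fold change in relative abundance was 0.50 (SE 0.08, 1.42-fold, edgeR adjusted p = 2.51e-05). PSMD6 (ENSG00000163636, chromosome 3 from 64010549 to 64024010, minus strand), a structural lid subunit, had 78.6, 92.8 and 97.8 CPM with SUPT4H1 siRNA, against 60.5, 70.0 and 77.6 CPM with scrambled siRNA. Its groups were also apart, although SUPT4H1 siRNA replicate 6 was low at 78.6 CPM, and the log2 fold change in relative abundance was 0.39 (SE 0.08, adjusted p = 0.000498). Exons of PSMD6-AS1 and PSMD6-AS2 lie opposite it.

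The other 3 risen lid genes changed less and had overlapping groups. PSMD3, whose promoter held 2 cores, had a log2 fold change in relative abundance of 0.26 (SE 0.08, edgeR adjusted p = 0.0121). PSMD13 had 0.25 (SE 0.08, adjusted p = 0.0199), with an exon of SIRT3 opposite it, and PSMD12 had 0.25 (SE 0.10, adjusted p = 0.0475). The PSMD12 call was lost in 12 of 20 other settings. It was 0.15 (adjusted p = 0.168) without SUPT4H1 siRNA replicate 6, where PSMD12 stood at 83.0 CPM, above 54.9 to 65.1 CPM in the other 5 libraries of that group. PSMD7, PSMD8 and PSMD14 were not called, with log2 fold changes of 0.14, 0.10 and −0.10. PSMD14, the enzyme that cuts the ubiquitin chain from the substrate, had 71.7 ± 6.98 CPM with SUPT4H1 siRNA and 76.8 ± 3.27 CPM with scrambled siRNA (SD, n = 6 each).

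**Figure D3:**
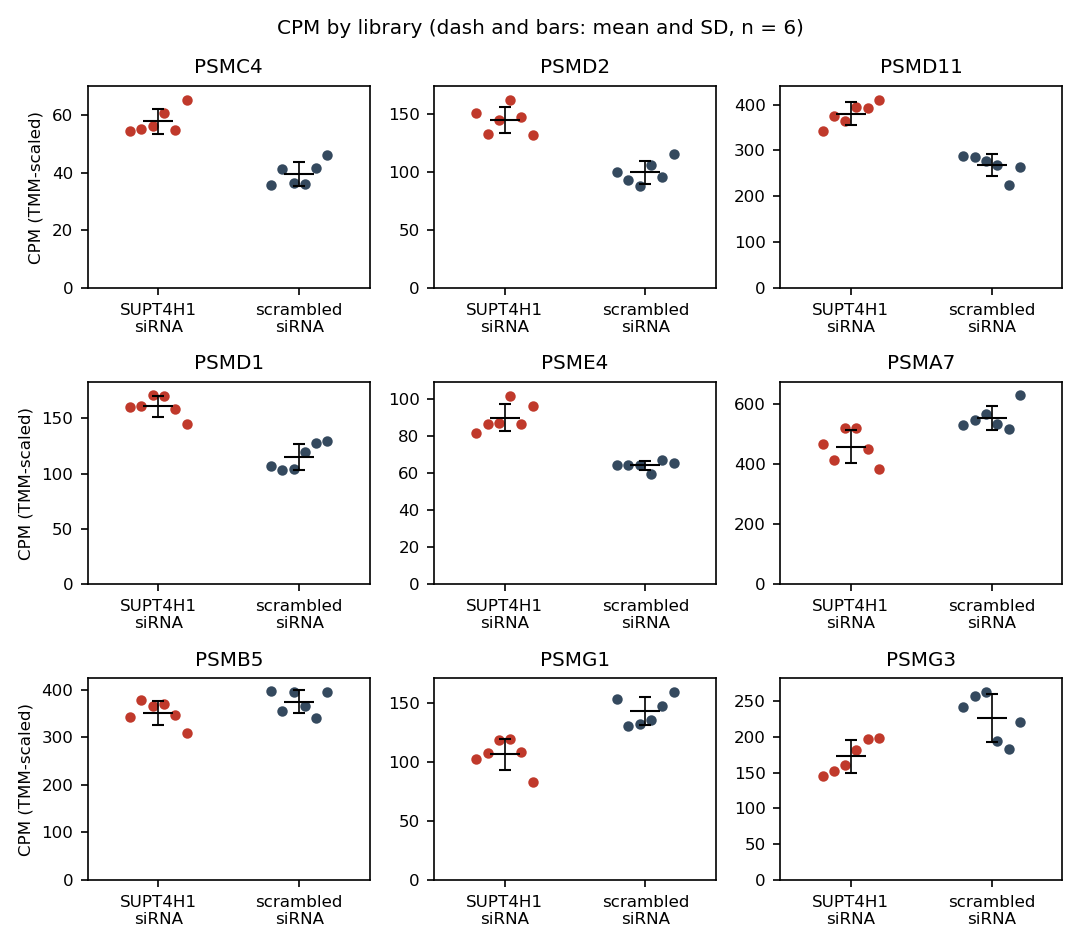
TMM-scaled CPM of 9 members in each library, with SUPT4H1 siRNA on the left and scrambled siRNA on the right of each panel, and the mean and SD of 6 libraries as dash and bars. PSMC4, PSMD2, PSMD11, PSMD1 and PSME4 are higher in every SUPT4H1 siRNA library, PSMG1 is lower in every one, and PSMA7, PSMB5 and PSMG3 overlap.

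The constitutive 20S core had 0 risen (0%) and 2 fallen genes (14.3%) among the 14 tested of 15, by edgeR's quasi-likelihood test. Over all genes tested 20.3% rose and 19.8% fell, so the core's share fallen was below that of all genes. The core's median relative log2 fold change was −0.00. At an unadjusted p under 0.05, 1 was higher and 3 were lower, DESeq2 called 1 risen, and without SUPT4H1 siRNA replicate 6 the count risen was 2. The summed level was 3509 ± 173 CPM with SUPT4H1 siRNA and 3697 ± 184 CPM with scrambled siRNA (SD, n = 6 each), with overlapping ranges. The fallen genes both encode alpha-ring subunits, which form the gated entrance of the barrel. PSMA1 (ENSG00000129084, chromosome 11 from 14504874 to 14643635, minus strand) had a lowest, median and highest level of 224, 247 and 272 CPM with SUPT4H1 siRNA, against 284, 293 and 307 CPM with scrambled siRNA. It was lower in every SUPT4H1 siRNA library, with a log2 fold change in relative abundance of −0.24 (SE 0.07, adjusted p = 0.00898). An exon of AC018523.2 overlaps PSMA1 on the same strand. PSMA7 (ENSG00000101182, chromosome 20 from 62136735 to 62143440, minus strand) had 383, 457 and 520 CPM with SUPT4H1 siRNA, against 516, 539 and 629 CPM with scrambled siRNA. Its groups overlapped by a small margin, and the log2 fold change in relative abundance was −0.27 (SE 0.08, adjusted p = 0.0134). With RNA integrity as a covariate the PSMA7 call was lost (edgeR adjusted p = 0.0697). The other tested alpha genes, PSMA2 to PSMA6, ran from −0.28 to 0.17, and without SUPT4H1 siRNA replicate 6 PSMA2 was at 0.22 (adjusted p = 0.0356). PSMA6 stood near 1 CPM, with 5 to 23 counts per SUPT4H1 siRNA library and 4 to 35 per scrambled siRNA library, so a change of its size was not detectable at this depth. An exon of AL121594.1 overlaps PSMA6 on the same strand, and its part in the low PSMA6 counts was not tested.

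The catalytic subunits stood at the same side of the threshold as the rest of the beta ring. PSMB5, which carries the chymotrypsin-like activity, had a lowest, median and highest level of 309, 356 and 379 CPM with SUPT4H1 siRNA, against 341, 381 and 398 CPM with scrambled siRNA. The groups overlapped and the log2 fold change in relative abundance was −0.09 (SE 0.07, edgeR adjusted p = 0.329). PSMB6, with the caspase-like activity, had 187, 284 and 300 CPM with SUPT4H1 siRNA, against 265, 326 and 375 CPM with scrambled siRNA (log2 fold change −0.25, SE 0.11, adjusted p = 0.0662), its lowest value again being SUPT4H1 siRNA replicate 6. PSMB7, with the trypsin-like activity, had 486, 531 and 592 CPM with SUPT4H1 siRNA, against 472, 495 and 573 CPM with scrambled siRNA (log2 fold change 0.10, SE 0.08, adjusted p = 0.321). The structural beta genes PSMB1, PSMB2, PSMB3 and PSMB4 had values of −0.17, 0.15, 0.12 and 0.10, and their groups overlapped. PSMB3 had 48.6 CPM in SUPT4H1 siRNA replicate 6 and 105 to 136 CPM in the other 5 libraries of that group, against 86.8 to 128 CPM with scrambled siRNA, and without that library its log2 fold change was 0.25 (adjusted p = 0.0479) and that of PSMB1 was −0.28 (adjusted p = 0.0107). Under spike-in scaling 12 of the 14 tested core genes fell (85.7%), with a median of −0.85. Of the 17 cap subunits 5 fell (29.4%), with a median of −0.56. Over all genes tested 59% fell under that scaling, with a median of −0.82.

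The ratio of cap to core RNA was compared within each library, where depth and the choice of scaling cancel. The log2 ratio of summed cap to summed core CPM was 0.03 ± 0.07 with SUPT4H1 siRNA and −0.29 ± 0.05 with scrambled siRNA (SD, n = 6 each). It ran from −0.05 to 0.14 in the SUPT4H1 siRNA libraries, against −0.34 to −0.22 in the scrambled siRNA libraries, so the groups did not overlap. SUPT4H1 siRNA replicate 6 had the highest ratio, and the other 5 libraries of its group, at −0.05 to 0.09, were also above every scrambled siRNA library. The genes were grouped with earlier results of these data known, so no p-value is attached to this ratio.

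**Figure D4:**
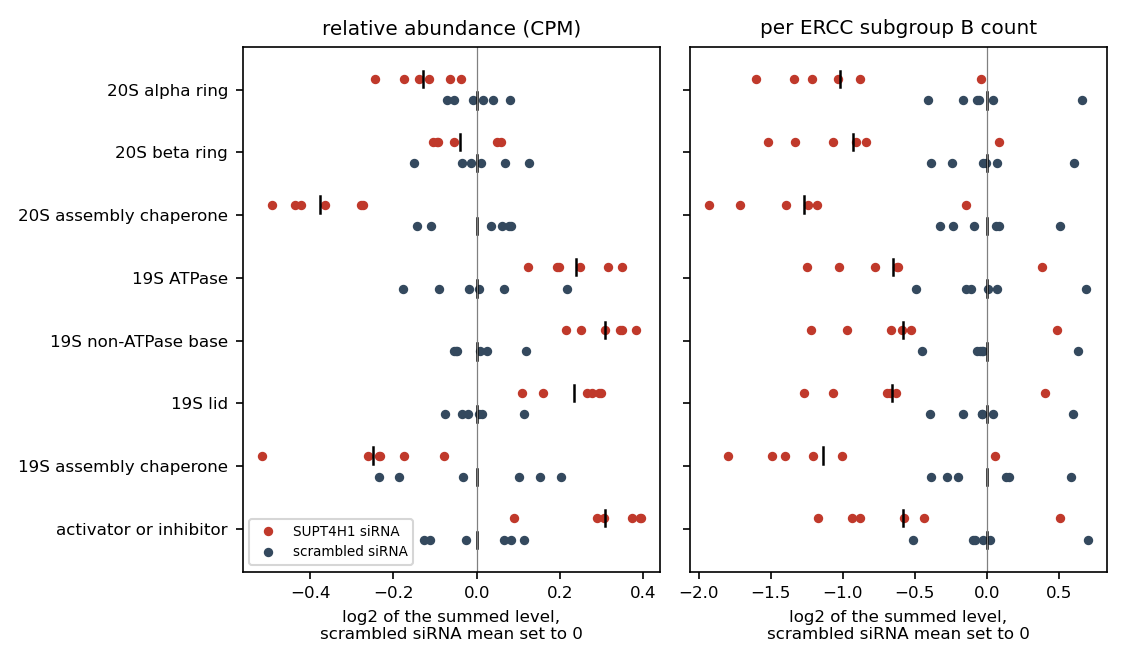
Summed level of each role in every library, as log2 with the scrambled siRNA mean set to 0, in CPM (left) and in counts per ERCC subgroup B count (right), with black ticks for the group means. In CPM the cap roles and the activators lie to the right with SUPT4H1 siRNA, and the core chaperones to the left. Per standard count every role's SUPT4H1 siRNA mean is below 0, with SUPT4H1 siRNA replicate 5 far to the right of the others.

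The assembly chaperones were all lower in relative abundance. PSMG1 to PSMG4 act in pairs that build the alpha ring and then leave. Of these 4, 3 fell (75%), beside 19.8% of all genes tested. PSMG1 (ENSG00000183527, chromosome 21 from 39174769 to 39183851, minus strand) had a lowest, median and highest level of 83.2, 108 and 119 CPM with SUPT4H1 siRNA, against 130, 141 and 159 CPM with scrambled siRNA. It was lower in all 6 SUPT4H1 siRNA libraries, with a log2 fold change in relative abundance of −0.42 (SE 0.09, edgeR adjusted p = 0.000555). PSMG3 had 145, 171 and 199 CPM with SUPT4H1 siRNA, against 183, 230 and 263 CPM with scrambled siRNA. Its groups overlapped, its relative log2 fold change was −0.39 (SE 0.10, adjusted p = 0.00409), and PSMG3-AS1 lies opposite it. PSMG4, the partner of PSMG3 (ENSG00000180822, chromosome 6 from 3231403 to 3303373, plus strand), had 44.7, 56.4 and 61.1 CPM with SUPT4H1 siRNA, against 62.0, 69.2 and 79.2 CPM with scrambled siRNA. The groups were apart (log2 fold change −0.33, SE 0.08, adjusted p = 0.00374), and exons of TUBB2B and SLC22A23 lie on the opposite strand. PSMG2, the partner of PSMG1, was not called, with 24.2, 28.2 and 34.1 CPM with SUPT4H1 siRNA, against 29.6, 33.0 and 36.9 CPM with scrambled siRNA (log2 fold change −0.20, SE 0.10, adjusted p = 0.105).

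The chaperones of the cap pointed the same way at lower levels. PSMD5, which holds part of the ATPase ring during assembly (ENSG00000095261, chromosome 9 from 120815496 to 120842984, minus strand), had 1.07, 1.32 and 2.20 CPM at its lowest, median and highest with SUPT4H1 siRNA, against 2.01, 3.10 and 3.36 CPM with scrambled siRNA. The groups overlapped in 1 library each, and the log2 fold change in relative abundance was −0.98 (SE 0.23, edgeR adjusted p = 0.00192) on 8 to 25 counts per SUPT4H1 siRNA library and 22 to 66 per scrambled siRNA library. PSMD9 and PSMD10 were not called, with relative log2 fold changes of −0.31 (adjusted p = 0.0922) and −0.21 (adjusted p = 0.0674). Of all 7 chaperones 0 rose, 0 were higher at an unadjusted p under 0.05, and 4 fell (57.1%), beside 19.8% of all genes tested. Under spike-in scaling all 7 fell, to between 27.9% and 49.7% of the scrambled siRNA level. Under that scaling 59% of all genes tested fell, and the median over all genes tested was 56.7% of the scrambled siRNA level. For the chaperones of the core, DESeq2 and limma-voom also called 0 risen. The log2 ratio of summed core chaperones to summed core CPM was −3.28 ± 0.08 with SUPT4H1 siRNA and −2.97 ± 0.08 with scrambled siRNA (SD, n = 6 each). It ran from −3.36 to −3.15 in the SUPT4H1 siRNA libraries, against −3.09 to −2.90 in the scrambled siRNA libraries, again without overlap.

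Among the activators and the inhibitor, 2 of 5 rose (40%), beside 20.3% of all genes tested. All 5 rose without SUPT4H1 siRNA replicate 6, where 2724 of 14043 genes tested rose. PSME4, which encodes the nuclear cap protein PA200 (ENSG00000068878, chromosome 2 from 53864067 to 53970840, minus strand), had a lowest, median and highest level of 81.6, 86.6 and 102 CPM with SUPT4H1 siRNA, against 59.1, 64.2 and 66.7 CPM with scrambled siRNA. No library of one group reached the other group, and the log2 fold change in relative abundance was 0.49 (SE 0.07, 1.40-fold, edgeR adjusted p = 2.17e-05). PSME3, the nuclear PA28 gamma (ENSG00000131467, chromosome 17 from 42824385 to 42843758, plus strand), had 91.1, 95.3 and 114 CPM with SUPT4H1 siRNA, against 64.7, 78.5 and 90.0 CPM with scrambled siRNA. These groups did not overlap (log2 fold change 0.34, SE 0.09, adjusted p = 0.00441), and exons of ACYP2 and BECN1 lie opposite PSME4 and PSME3. PSME1 and PSME2, the PA28 subunits that interferon induces, had log2 fold changes of 0.18 (SE 0.13, adjusted p = 0.276) and 0.22 (SE 0.09, adjusted p = 0.0633). PSME1 ranged over 49.8, 90.4 and 97.4 CPM with SUPT4H1 siRNA, against 62.6, 73.0 and 83.5 CPM with scrambled siRNA, and its lowest value was again replicate 6, without which the log2 fold change was 0.26 (adjusted p = 0.0104). PSME2 had 25.5, 28.8 and 33.1 CPM with SUPT4H1 siRNA, against 23.5, 24.8 and 28.6 CPM with scrambled siRNA. PSMF1, the inhibitor PI31, had 36.6, 51.7 and 57.2 CPM with SUPT4H1 siRNA, against 39.6, 42.4 and 46.1 CPM with scrambled siRNA (log2 fold change 0.23, SE 0.10, adjusted p = 0.056). The lowest PSMF1 value was also replicate 6. Without that library PSME2 was at 0.23 (adjusted p = 0.0414) and PSMF1 at 0.28 (adjusted p = 0.00489), and with every library included DESeq2 called both risen.

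The inducible core subunits, which replace the catalytic ones in immune cells and after interferon, were near the detection limit. PSMB9, the counterpart of PSMB6, had 36, 17, 38, 9, 6 and 1 counts in SUPT4H1 siRNA replicates 1 to 6, against 12, 12, 10, 7, 17 and 10 counts in scrambled siRNA replicates 1 to 6. In CPM, SUPT4H1 siRNA replicates 1 to 4 were above the highest scrambled siRNA library (1.10 CPM) and replicate 6, at 0.144 CPM, was below the lowest (0.589 CPM), so the groups overlapped. In log2, the relative fold change was 1.29 (SE 0.45, edgeR adjusted p = 0.0287). This was the largest change among the tested members, and the call was lost in 8 of 19 other settings, among them limma-voom (0.85, adjusted p = 0.200) and leaving out SUPT4H1 siRNA replicate 1 or 3. PSMB8, the counterpart of PSMB5, had 0 to 15 counts per SUPT4H1 siRNA library and 12 to 29 per scrambled siRNA library and was not tested. Its mean was 0.556 CPM with SUPT4H1 siRNA and 1.27 CPM with scrambled siRNA, the opposite direction to PSMB9 (1.75 and 0.763 CPM). The highest PSMB9 levels, which count toward passing the filter, were in SUPT4H1 siRNA replicates 1 to 4. The filter kept the gene that was higher with SUPT4H1 siRNA and left out the one that was lower. The PSMB9 call is therefore no result for the inducible subunits as a set. Exons of PSMB8 and PSMB9 overlap on opposite strands, and PSMB8-AS1 overlaps PSMB9 on the same strand, so their reads may be shared. PSMB10, the counterpart of PSMB7, had at most 3 counts in a SUPT4H1 siRNA library and 4 in a scrambled siRNA library. Of 12 interferon and antigen-processing genes, 10 were tested and 4 rose (40%), beside 20.3% of all genes tested. Among the 4, TAPBP rose by 0.45, B2M by 0.34 and HLA-B by 0.32 in relative log2 fold change. The interferon-induced TAP1 was at 0.02. The summed level of the 12 genes was 1187 to 1378 CPM with SUPT4H1 siRNA, against 1007 to 1171 CPM with scrambled siRNA. Their part in the PSMB9 values was not tested.

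**Figure D5:**
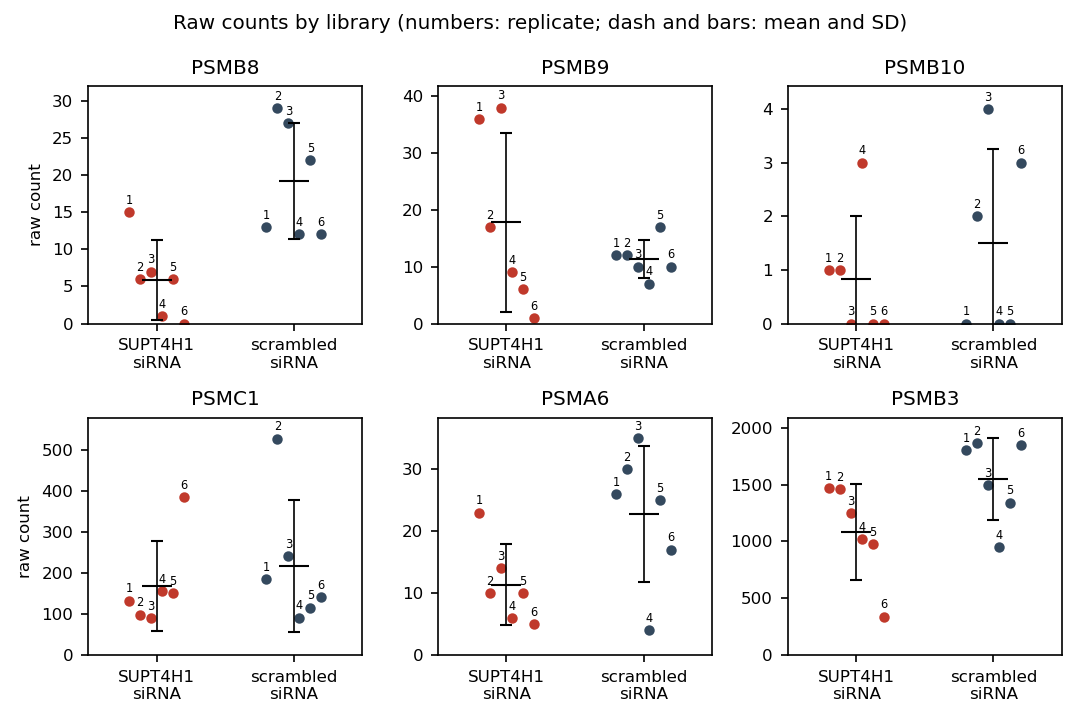
Raw counts of 6 low or uneven members in each library, labelled by replicate number, with SUPT4H1 siRNA on the left and scrambled siRNA on the right and the mean and SD as dash and bars. PSMB8, PSMB9, PSMB10 and PSMA6 stay at or below 38 counts, PSMC1 is set by 1 library in each group, and PSMB3 is lowest in SUPT4H1 siRNA replicate 6.

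PSMC3IP, the recombination factor taken by the symbol rule, had a larger relative change than every tested proteasome gene except the low PSMB9 and PSMD5. It had a lowest, median and highest level of 49.9, 53.6 and 60.3 CPM with SUPT4H1 siRNA, against 75.3, 87.6 and 90.5 CPM with scrambled siRNA. The groups were apart, and the log2 fold change in relative abundance was −0.66 (SE 0.08, edgeR adjusted p = 9.07e-07), or 36.1% of the scrambled siRNA level under spike-in scaling. An exon of MLX lies opposite it.

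Other genes of the pathway were taken from a list of 49 partners of the proteasome, of which 48 were tested. In relative abundance 13 rose (27.1%) and 9 fell (18.8%), beside the backgrounds of 20.3% and 19.8%, with a median of 0.10. With RNA integrity as a covariate 8 partners rose, where 2327 of 13820 genes tested rose. Without SUPT4H1 siRNA replicate 6, 10 partners rose and 11 fell, where 2724 of 14043 genes tested rose and 3177 fell. Among the enzymes that sit on the cap, the deubiquitinases UCHL5 (0.29, adjusted p = 0.0176) and USP14 (0.22, adjusted p = 0.0227) rose, calls that were lost without SUPT4H1 siRNA replicate 6 (0.19 with adjusted p = 0.0599, and 0.14 with adjusted p = 0.08004), and the ubiquitin ligase UBE3C fell (−0.18, adjusted p = 0.0486). The subunits named outside the PSM series, ADRM1 (0.08) and SHFM1 (0.16), and the core maturation protein POMP (0.13) were not called. AKIRIN2, which brings proteasomes into the nucleus, rose by 0.40 (adjusted p = 0.00859), as did the proteasome adaptor KIAA0368 by 0.22 (adjusted p = 0.0228).

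The transcription factor NFE2L1, which drives proteasome genes when degradation is impaired, was not called, with 74.1 ± 6.05 CPM with SUPT4H1 siRNA and 86.2 ± 12.98 CPM with scrambled siRNA (SD, n = 6 each, log2 fold change −0.22, SE 0.09, edgeR adjusted p = 0.062). Without SUPT4H1 siRNA replicate 6 it was called fallen (−0.28, adjusted p = 0.0108). DDI2, the protease that activates the NFE2L1 protein, had 136 ± 6.91 CPM with SUPT4H1 siRNA and 109 ± 6.09 CPM with scrambled siRNA (SD, n = 6 each) with groups apart, and rose by 0.31 (SE 0.07, adjusted p = 0.00104). NFE2L2, a related factor that binds the same elements, rose by 0.61 (SE 0.13, adjusted p = 0.000684), and MAFK, a small partner of both, fell by 0.76 (SE 0.12, adjusted p = 4.89e-05). NGLY1, which removes glycans from the NFE2L1 protein, was at 0.06 and not called.

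Shuttle and stress factors moved in both directions. The heat- and arsenite-inducible ZFAND2A (AIRAP) had the largest fall of the list, with 8.32 ± 0.714 CPM with SUPT4H1 siRNA and 21.6 ± 2.46 CPM with scrambled siRNA (SD, n = 6 each, log2 fold change −1.37, SE 0.11, edgeR adjusted p = 8.06e-09). Its paralog ZFAND2B had 20.5 ± 3.61 CPM with SUPT4H1 siRNA and 44.3 ± 7.13 CPM with scrambled siRNA (SD, n = 6 each, log2 fold change −1.11, SE 0.12, adjusted p = 5.56e-07), and both were lower in every SUPT4H1 siRNA library. The ubiquitin shuttle RAD23B was at −0.02 and not called, while the shuttle UBQLN1 rose by 0.31 (adjusted p = 0.000831). The stress-inducible polyubiquitin gene UBB fell by 0.47 (adjusted p = 0.000588). Both ubiquitin-activating enzymes, UBA1 and UBA6, rose by 0.29 (adjusted p = 0.00362 and 0.0114). The other risen partners were MIDN, FAF2, UBE4B and HUWE1, at 0.21, 0.28, 0.48 and 0.41. HUWE1 had 419 CPM in SUPT4H1 siRNA replicate 6 and 237 to 258 CPM in the other 5 libraries of that group, against 177 to 225 CPM with scrambled siRNA, and without replicate 6 it was at 0.22 (adjusted p = 0.0111). The MIDN call was lost without that library (0.15, adjusted p = 0.0578). Further fallen partners were TXNL1, PITHD1 and FAF1, at −0.32, −0.32 and −0.47. Under spike-in scaling 26 of the 48 fell (54.2%), with a median of −0.73, beside 59% and −0.82 for all genes tested.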

How the data were processed

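What the authors deposited is 1 table of unnormalized counts for the genes of 12 QuantSeq 3′ FWD libraries, each from 200 ng of RNA. The kit reads transcripts near their 3′ end whatever their length. The submitters' processing notes name FastQC 0.11.5, STAR, MultiQC, R 3.4.3 and the build GRCh38.p10. For the counting tool, the annotation and the use of strand nothing is stated in the sources used here. The range of depth in each group is given in the report.

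Counts were fitted with edgeR 4.0.16 (robust quasi-likelihood test, R 4.3.3) over all 12 libraries without covariates, after TMM scaling over endogenous genes and filterByExpr. Adjusted p-values are Benjamini-Hochberg values over all 13820 genes tested, with a threshold of 0.05. For spike-in-scaled values the offset was the total over the 23 spiked ERCC RNAs in subgroup B, at equal amounts in both mixes. That assignment comes from general knowledge, with no vendor table at hand. Relative to the subgroup B total, the median log2 differences between the groups were −2.03 (A, nominal −2), 0.59 (C, nominal 0.58) and 0.99 (D, nominal 1). For B itself the median was −0.01 (nominal 0). Division by the B total holds that value near 0, so it is no check of the B scale. Of the 23 standards listed per subgroup, 5 (A), 7 (B), 7 (C) and 7 (D) passed a minimum count of 20 and entered these medians. DESeq2 1.42.0, limma-voom (limma 3.58.1), other scalings and filters, the replicate number as a block and leaving out each library were alternatives, and scripts were tested on simulated counts. Within the groups, 30 library pairs were checked for repeats, and each pair differed beyond counting error (chi-square over its degrees of freedom 4.23 to 31.5). Exon overlaps came from GENCODE 29.

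The members, the partner and marker lists and the motifs were chosen with earlier results of these data known. Ranges over the libraries of each group, as levels or counts, were given for SUPT4H1, the 12 called members with the largest changes and the catalytic and inducible subunits. They were also given for the activators and inhibitor, PSMG1 to PSMG4 and PSMC3IP. Counts in every library were written out for PSMB9. Others are named where a count or a library turns on them. Some genes of the partner and interferon lists are counted in the totals and not reported here by name.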

Additional observations from a re-analysis of the deposited data

Results flagged for a closer look

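In 9 of the 92 sets of 6 libraries examined (45 tested members and SUPT4H1, in 2 groups), the gap between the most extreme library and its nearest neighbour, divided by the range of the set, was above Dixon's critical value, where chance gives about 4.6. SUPT4H1 siRNA replicate 6 accounted for 5 of them. It was low for PSMB3 (ratio 0.653, 48.6 CPM beside 105 to 136 CPM in the other libraries of its group), PSMB6 (0.696, 187 CPM beside 266 to 300 CPM) and PSMD6 (0.63, 78.6 CPM beside 90.7 to 97.8 CPM). It was high for PSMC1 (0.74, 55.4 CPM beside 8.51 to 20.7 CPM) and PSMD12 (0.635, 83.0 CPM beside 54.9 to 65.1 CPM). In the scrambled siRNA group, replicate 2 was high for PSMC1 (0.637, 25.9 CPM beside 7.45 to 14.1 CPM). Replicate 6 of that group was high for PSMB7 (0.754, 573 CPM beside 472 to 497 CPM) and PSMD8 (0.651, 630.2 CPM beside 520 to 558 CPM), and replicate 4 was low for PSME4 (0.648, 59.1 CPM beside 64.0 to 66.7 CPM). The cause of these values was not tested.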

How the results depend on the processing

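Of the 22 members called in relative abundance, 15 kept their call in every one of the 20 other settings in which they were tested: PSMC4, PSMC5, PSMD1, PSMD2, PSMD3, PSMD6, PSMD11, PSME3 and PSME4 as risen, and PSMA1, PSMD5 (tested in 19), PSMG1, PSMG3, PSMG4 and PSMC3IP as fallen. Leaving out each library in turn gave 9 to 16 risen members (9 without scrambled siRNA replicate 2), 7 to 11 risen cap subunits (7 without that library), 0 to 1 fallen cap subunits (0 without replicate 1 of either group) and 0 to 2 risen core subunits (2 without SUPT4H1 siRNA replicate 6). The activators and inhibitor gave 2 to 5 risen genes (5 without SUPT4H1 siRNA replicate 6). DESeq2 and total-count scaling each gave 1 risen core subunit and 4 risen genes among the activators and inhibitor. RNA integrity as a covariate left 1 fallen core subunit and 8 risen partners. PSMC1 turned to −0.066 without SUPT4H1 siRNA replicate 6 and reached 0.86 without scrambled siRNA replicate 2. PSMC2 turned to 0.010 with the RNA integrity covariate and 0.0022 with total-count scaling, and ran from −0.089 to 0.0038 when each library was left out. The role counts were added after seeing the data.

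Under spike-in scaling the number of fallen members was 43 with the RNA integrity covariate, 3 with ERCC subgroup C, and 17 to 44 when each library was left out (44 without SUPT4H1 siRNA replicate 5). Over all genes the number fallen was 12872, 2227 and 5643 to 12306 in the same settings. The number risen over all genes was 96 with no filter on low counts, 23 with at least 5 CPM in 6 libraries, 27 with the RNA integrity covariate and 68 with ERCC subgroup C. The cause of these changes was not tested.

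Libraries with the same replicate number did not deviate together (correlations of −0.34 to 0.08, and 0 of 6 numbers matched best with their own), so no pairing by number was visible in these counts. Such correlations cannot show whether the transfections were paired by design. With the replicate number as a block 12 members rose and 8 fell in relative abundance, 10 cap subunits rose and 1 fell, 10 partners rose and 8 fell, and 31 members fell and 0 rose under spike-in scaling. Among all genes 2437 rose and 2371 fell in relative abundance, and 34 rose and 9339 fell under spike-in scaling.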

Other observations

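The count table also lists 31 pseudogene rows of proteasome genes, of which 19 had a count, with at most 118 counts over all 12 libraries (PSMC1P1). The 4 rows of PSMA6 pseudogenes, whose parent gene stood near 1 CPM, included PSMA6P1 with 27 counts and PSMA6P2 with 6 counts over all libraries. Among the markers of other cell types, the collagen gene COL3A1 rose, with 1.76 to 3.65 CPM with SUPT4H1 siRNA, against 0.778 to 1.89 CPM with scrambled siRNA (relative log2 fold change 0.85, SE 0.27, edgeR adjusted p = 0.0159). COL1A1, the other tested fibroblast marker, had 2.95 to 6.60 CPM with SUPT4H1 siRNA, against 4.24 to 8.75 CPM with scrambled siRNA (−0.46, SE 0.21, adjusted p = 0.0828), and the fibroblast list summed to 6.62 to 11.98 CPM with SUPT4H1 siRNA, against 6.90 to 12.8 CPM with scrambled siRNA. The HEK293 marker NEFL, a neurofilament gene, fell, with 864 to 1006 CPM with SUPT4H1 siRNA, against 1187 to 1712 CPM with scrambled siRNA.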
